A study of Oryza sativa with 6 samples.

Results

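The genes described here write, erase or guide histone and DNA methylation marks in rice, or act on histone acetylation. They were found by symbol and synonym: a gene entered when one of its names in the rice gene reference, with or without a leading Os, was that of a histone deacetylase or acetyltransferase, a DNA methyltransferase or demethylating glycosylase, a SET-domain or Jumonji protein, a Polycomb subunit, an Argonaute or a Dicer-like protein. On the array 21 genes, read by 23 transcript clusters (groups of probes summarised as 1 transcript), were found this way, of 15140 genes that have a cluster of their own. They are 1 histone deacetylase, 2 histone demethylases, 1 histone methyltransferase, 1 Polycomb methyltransferase, 3 DNA methyltransferases, 1 DNA glycosylase, 10 Argonautes and 2 Dicer-like proteins. Another 6 genes of the reference carry such a name but have no cluster of their own and are not analysed here. No histone acetyltransferase and no EMF2 or FIE subunit of Polycomb was among the matches.

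Shoot apices of rice (Oryza sativa) with the meristem and the youngest leaf primordia, dissected as the tip of the fifth leaf came out, gave 3 samples of the mutant dsl1 and 3 samples of the wild type (WT). The title of the study says that the gene DWARF WITH SLENDER LEAF1 encodes a histone deacetylase. The kind of dsl1 allele, the rice strain behind both genotypes and the number of plants in a sample were not stated in the labels. All plants were grown in soil, and no treatment other than dissection is named. The labels do not say that replicates came from separate plants, so a p-value reflects only how far these samples spread, and that spread may be technical.

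Histone deacetylases take acetyl groups off histone tails and are linked to repression of transcription, while histone methylation is placed by SET-domain enzymes and removed by Jumonji proteins. In plants DNA methylation is maintained by MET1-type enzymes, placed anew by DRM enzymes and cut out by DNA glycosylases of the ROS1 type. Dicer-like proteins cut double-stranded RNA into small RNAs, which Argonautes carry to target RNAs or, for the AGO4 type, to chromatin where they direct DNA methylation. In the shoot apex of rice the pathway of trans-acting small RNAs, with DCL4 and AGO7, is needed to form and keep the meristem and to shape leaves.

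Values are the deposited log2 levels of single-colour Affymetrix arrays, 1 array a sample, so a difference of 1 is a 2-fold difference. A probe set's brightness depends on its own sequence, so expression was compared between genotypes and not between genes. Brightness ranks served to choose a gene's cluster, to leave out dim clusters and to place signals among all clusters. The array medians lay between 5.30 and 5.40. Correlations over all clusters were 0.980 to 0.981 within dsl1, 0.970 to 0.979 within WT and 0.962 to 0.978 between the genotypes, so the lowest correlation among WT arrays was below the highest one across genotypes. The meristem genes OSH1, OSH15 and OSH71 had mean log2 levels of 4.86 to 5.69 in dsl1 and 4.29 to 5.34 in WT. All 3 had the higher mean in dsl1. OSH71 differed by 0.57, OSH15 by 0.35 and OSH1 by 0.15 on the log2 scale (limma adjusted p = 0.392, 0.41 and 0.827). Of these only OSH15 had groups without overlap. For 6 genes of leaf primordia, DL and members of the YABBY family, the differences lay between -0.25 and 0.11, with 5 of 6 below 0. For 5 genes of greening leaf they lay between -0.28 and 0.15, with 4 of 5 below 0. Both glutelin genes of seed storage on the marker list were lower in dsl1 without overlap, with differences of -0.42 for GluB5 and -0.40 for GLUA1 (limma adjusted p = 0.342 and 0.362), about as large as those of AGO4A and MET1B below. In such bulk samples a different share of cells of a type and a different RNA level per cell cannot be told apart, and the part of these marker differences in the values below was not tested.

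No member passed the test of dsl1 against WT, a limma fit over all 54922 clusters with a Benjamini-Hochberg adjusted p under 0.05 as the threshold. That threshold passed 14 clusters, or 0.0255% of all, and 6 of the 15140 genes, or 0.0396%. At an unadjusted p under 0.05 in limma 3 of the 21 members differed, 1 higher and 2 lower in dsl1, which is 14.3% of them, against 15% of all genes on 1 cluster each (9.46% higher and 5.52% lower) and 11.8% of all clusters. The dsl1 and WT values did not overlap in 5 members, with dsl1 above in 2 and below in 3. That is 23.8% of them, against 24.4% of all genes (15% above and 9.33% below). Both shares are near those of all genes. When only the clusters with 1 gene entered the limma fit, 0.474% of them passed, and again no member. Differences were above 0 in 12 members and below 0 in 9, or 57.1% above, against 53.0% above over all genes. The median difference of the members was 0.075 on the log2 scale, against a median of 0.019 over all genes. That median of the members was 0.139 without WT replicate 2, 0.037 without WT replicate 1, 0.024 without WT replicate 3 and 0.041 on quantile normalisation. The median size of a difference, without its sign, was 0.171 over the members and 0.183 over all genes.

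**Figure D1:**
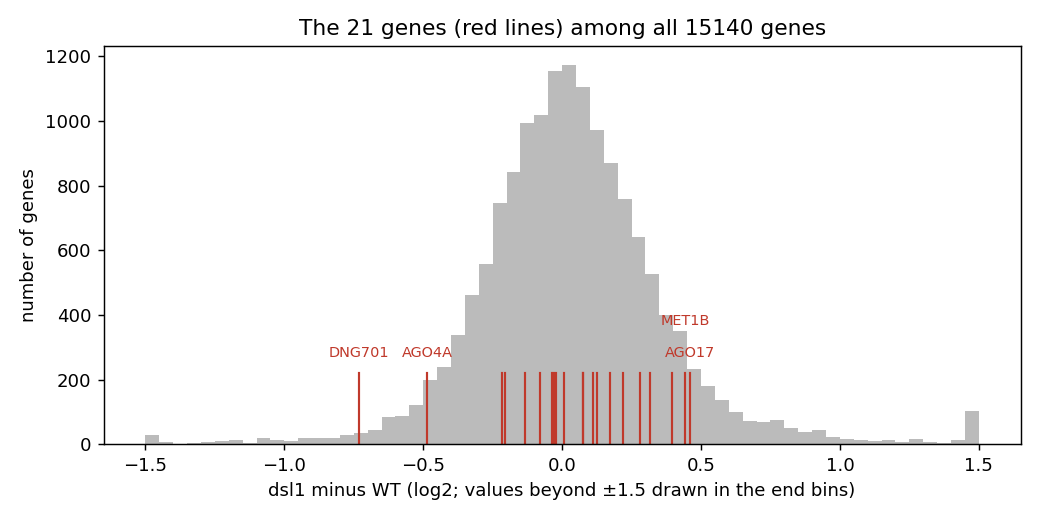
Histogram of the log2 difference, dsl1 minus WT, of 15140 genes on 1 cluster each (grey bars; y axis, number of genes), with the 21 members as red lines. The members run from -0.73 (DNG701) to 0.46 (AGO17), inside the spread of all genes.

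**Figure D2:**
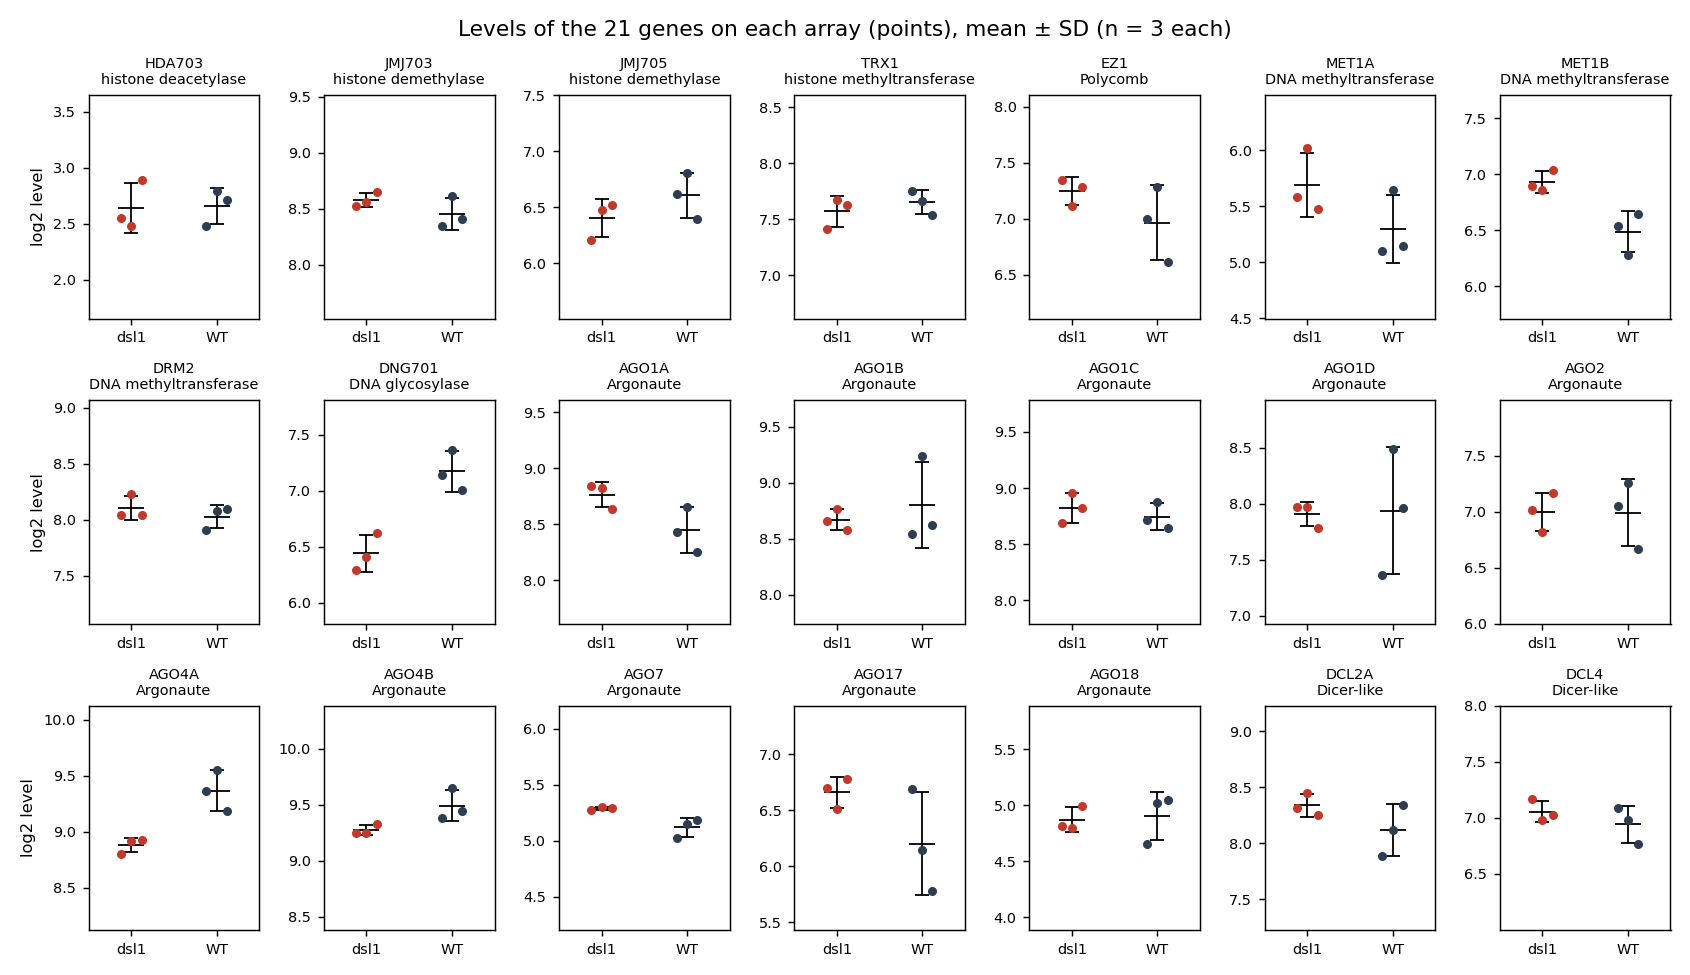
Log2 level (y axis) of each of the 21 genes on the 3 dsl1 arrays (red) and the 3 WT arrays (dark), with mean and SD as bars. Each panel spans 2 log2 units around its gene. The groups do not overlap for DNG701, AGO4A, AGO4B, MET1B and AGO7.

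DNG701, also listed as ROS1C, had the smallest p of the members. It is a DNA glycosylase that cuts methylated cytosine out of DNA, so that it is replaced by the unmethylated base. On its brightest cluster its log2 levels were 6.30, 6.41 and 6.62 in dsl1, against 7.14, 7.36 and 7.01 in WT. All 3 dsl1 arrays were below all 3 WT arrays. The means were 6.44 ± 0.164 in dsl1 and 7.17 ± 0.180 in WT (SD, n = 3 each). The difference was -0.73 on the log2 scale (95% interval -1.10 to -0.36), a WT level 1.66-fold that of dsl1, and did not pass in limma (adjusted p = 0.24). A difference of at least this size was seen in 4.41% of all genes.

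DNG701 is the only member read by more than 1 cluster, so its difference could be looked at on 3 sets of probes. On cluster 15982787 the levels were 4.86, 4.56 and 5.01 in dsl1 and 5.43, 5.53 and 5.52 in WT, again without overlap, with a difference of -0.68 (limma adjusted p = 0.25). On cluster 15982792 they were 5.42, 5.80 and 5.27 in dsl1 and 5.88, 5.76 and 5.82 in WT. There dsl1 replicate 2 lay above WT replicate 2, so the groups overlapped, and the difference was -0.32 (95% interval -0.71 to 0.072, limma adjusted p = 0.496). All 3 clusters gave a lower mean in dsl1. They share the same RNA samples and are not replicates of each other. With 1 array left out at a time the difference on the brightest cluster stayed between -0.82 and -0.63.

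**Figure D3:**
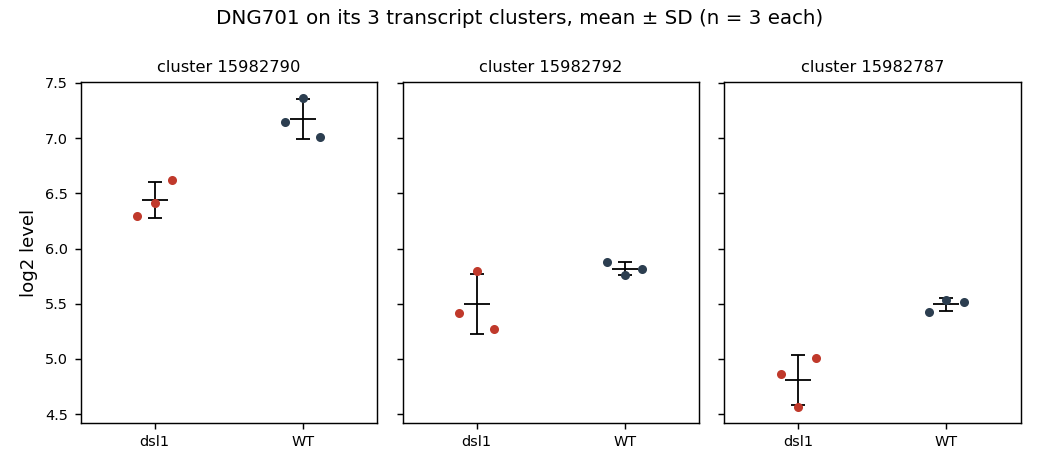
Log2 level (y axis) of DNG701 on its 3 transcript clusters, one panel each, on the dsl1 arrays (red) and the WT arrays (dark), with mean and SD as bars. On 2 clusters, 15982790 and 15982787, dsl1 lies wholly below WT, and on cluster 15982792 the groups overlap.

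The DNA methyltransferases had higher means in dsl1, all 3 of them, with a median difference of 0.40 (0.23 without dsl1 replicate 2), and none passed. MET1B, a maintenance enzyme that copies methylation of CG sites after replication, had log2 levels of 6.89, 6.86 and 7.04 in dsl1, against 6.54, 6.28 and 6.64 in WT. The lowest dsl1 value lay above the highest WT value. The means of MET1B were 6.93 ± 0.0974 in dsl1 and 6.49 ± 0.186 in WT (SD, n = 3 each), a difference of 0.44 (95% interval 0.10 to 0.79), or 1.36-fold, with a limma adjusted p of 0.353.

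MET1A, the second gene of the same type, had levels of 5.58, 6.02 and 5.48 in dsl1 and 5.10, 5.65 and 5.15 in WT. Replicate 2 was the highest of its genotype on both sides, and WT replicate 2 reached above 2 of the dsl1 values. Its difference was 0.40 with an interval of -0.11 to 0.90 (limma adjusted p = 0.512), which ranged from 0.23 without dsl1 replicate 2 to 0.57 without WT replicate 2. MET1A and MET1B are paralogs, and how far their probes cross-hybridise was not tested. DRM2, which adds methyl groups to sites that small RNAs mark, stood at 8.05, 8.23 and 8.04 in dsl1 and at 7.91, 8.08 and 8.10 in WT. Its groups overlapped, and its difference of 0.076 has an interval of -0.23 to 0.38 (limma adjusted p = 0.85), and was 0.013 without dsl1 replicate 2 and 0.017 without WT replicate 1.

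AGO4A and AGO4B, Argonautes that carry small interfering RNAs to chromatin in the pathway that ends in DRM2, were both lower in dsl1 without passing the test. AGO4A had levels of 8.81, 8.92 and 8.93 in dsl1, against 9.37, 9.55 and 9.19 in WT. The dsl1 arrays all lay below the WT arrays and close to one another. Its means were 8.88 ± 0.0667 in dsl1 and 9.37 ± 0.181 in WT (SD, n = 3 each), a difference of -0.48 (95% interval -0.82 to -0.15) and a limma adjusted p of 0.318. With 1 array left out at a time the difference was -0.57 to -0.39.

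AGO4B had levels of 9.24, 9.25 and 9.33 in dsl1, against 9.38, 9.65 and 9.45 in WT. These groups did not overlap either, though the gap between the highest dsl1 and the lowest WT array was small. Its difference was -0.22 with an interval of -0.52 to 0.089 (limma adjusted p = 0.55), and was -0.14 without WT replicate 2. Whether the AGO4A and AGO4B probes read each other's transcripts was not tested.

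The 4 AGO1 genes, the Argonautes that carry most microRNAs and cut their target messages, had differences on both sides of 0. AGO1A was at 8.84, 8.82 and 8.63 in dsl1 and at 8.43, 8.66 and 8.25 in WT. Only WT replicate 2 reached into the dsl1 range, just above dsl1 replicate 3. The difference of AGO1A was 0.32 (95% interval -0.042 to 0.68, limma adjusted p = 0.469). It ranged from 0.22 without WT replicate 3 to 0.42 without WT replicate 2.

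For AGO1B the levels were 8.66, 8.77 and 8.58 in dsl1 and 8.55, 9.24 and 8.62 in WT. A single array, WT replicate 2, stood above all others, and the difference of -0.13 (95% interval -0.62 to 0.36) turned to 0.088 without it. AGO1D had the widest WT spread of the members, with 7.97, 7.97 and 7.79 in dsl1 against 7.36, 8.49 and 7.96 in WT. Its difference of -0.031 has an interval of -0.68 to 0.62, and was 0.25 without WT replicate 2 and -0.32 without WT replicate 1. AGO1C differed by 0.075 (95% interval -0.25 to 0.40), and with 1 array left out by 0.0077 (without dsl1 replicate 2) to 0.14 (without dsl1 replicate 1 or WT replicate 2). The limma adjusted p was 0.833 for AGO1B, 0.862 for AGO1C and 0.974 for AGO1D. The intervals of all 4 AGO1 genes lie within a 2-fold difference in either direction, as do those of 13325 of the 15140 genes.

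AGO7, also listed as SHL4 and SHO2, binds the microRNA that starts the trans-acting small RNA pathway, and its loss disturbs the shoot meristem. Its levels were 5.28, 5.30 and 5.29 in dsl1, against 5.02, 5.15 and 5.18 in WT. The dsl1 arrays were nearly equal and all above WT. The difference was 0.17 (95% interval -0.11 to 0.45, limma adjusted p = 0.606). Its SDs were 0.0112 in dsl1 and 0.0857 in WT, and limma, which draws a gene's spread toward that of all clusters, gave the difference an SE of 0.118. DCL4, listed also as SHO1, cuts the precursors of the same small RNAs. It had 7.17, 6.98 and 7.03 in dsl1 and 7.09, 6.98 and 6.76 in WT, with overlap, and a difference of 0.11 (95% interval -0.22 to 0.44, limma adjusted p = 0.786). The difference of DCL4 was 0.023 without WT replicate 3, 0.058 without dsl1 replicate 1 and 0.18 without WT replicate 1.

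DCL2A, a Dicer-like protein of the type that in Arabidopsis acts on viral and other long double-stranded RNA, had 8.31, 8.45 and 8.25 in dsl1 and 7.88, 8.12 and 8.34 in WT. WT replicate 3 lay inside the dsl1 range. The difference was 0.22 (95% interval -0.15 to 0.59, limma adjusted p = 0.616), or 0.10 without WT replicate 1 and 0.34 without WT replicate 3.

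AGO17 had the largest positive difference, 0.46, and also a wide one, with an interval of -0.10 to 1.02 (limma adjusted p = 0.497). Its levels were 6.70, 6.51 and 6.78 in dsl1, against 6.69, 6.15 and 5.78 in WT. WT replicate 1 was as high as the dsl1 arrays and the other WT arrays were below them. Without WT replicate 1 the difference was 0.70, and without WT replicate 3 it was 0.25. AGO2 and AGO18, which in rice take part in defence against viruses, differed by 0.0071 (95% interval -0.44 to 0.45) and -0.037 (95% interval -0.40 to 0.33). Both had overlapping groups, and their limma adjusted p were 0.992 and 0.944.

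Among the histone modifiers no member had groups that stood apart. Over all genes 24.4% did, and the histone modifiers are too few to be set against that share. EZ1, also listed as SDG718, is a catalytic subunit of the Polycomb complex that places a repressive methyl mark on histone H3. Its levels were 7.35, 7.11 and 7.28 in dsl1, against 6.998, 7.28 and 6.62 in WT. WT replicate 2 lay within the dsl1 range and the other WT arrays below it. The difference of EZ1 was 0.28 (95% interval -0.18 to 0.73, limma adjusted p = 0.603) and ranged from 0.11 without WT replicate 3 to 0.44 without WT replicate 2.

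JMJ705, a Jumonji demethylase that removes the mark placed by Polycomb, had 6.21, 6.47 and 6.52 in dsl1 and 6.61, 6.80 and 6.39 in WT. The groups overlapped through WT replicate 3, and the difference was -0.20 (95% interval -0.59 to 0.18, limma adjusted p = 0.651). It was -0.10 without WT replicate 2, -0.11 without dsl1 replicate 1 and -0.31 without WT replicate 3. JMJ703, a Jumonji demethylase of a histone H3 mark found at active genes, differed by 0.12 (95% interval -0.19 to 0.43, limma adjusted p = 0.744), or by 0.068 without WT replicate 1 and 0.20 without WT replicate 2. TRX1, listed also as SDG723, is a methyltransferase of the trithorax type that places that mark and has a role in heading date. It differed by -0.081 (95% interval -0.40 to 0.24, limma adjusted p = 0.848), and by -0.0023 without dsl1 replicate 1 and -0.14 without WT replicate 3.

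HDA703, or HDAC3, is an RPD3-type enzyme and the sole histone deacetylase found by name. Its levels were 2.55, 2.48 and 2.89 in dsl1 and 2.48, 2.79 and 2.71 in WT. Both genotypes lay in the dimmest of 5 equal groups of clusters, whose mean was 2.81, so the difference of -0.021 (95% interval -0.41 to 0.37, limma adjusted p = 0.97) says little about the transcript. Its sign changed to 0.041 on quantile normalisation. The labels do not say whether dsl1 carries its lesion in HDA703 or in another deacetylase gene, so the labels of the mutant arrays could not be checked through the mutated gene. By brightness, HDA703 alone of the 21 members fell into the bottom one of these 5 groups, and 10 members fell into the top one. Of the 15140 genes, each likewise read on its brightest cluster, 1714 fell into the bottom group and 4313 into the top one. These counts were not tested against each other.

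**Figure D4:**
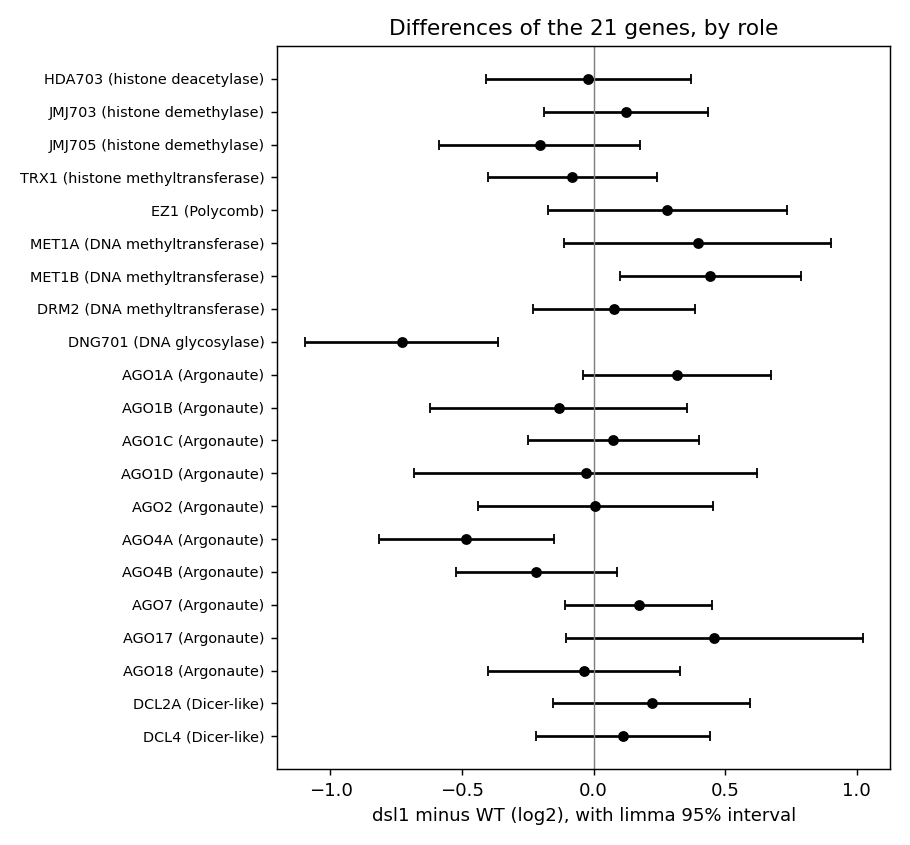
Log2 difference, dsl1 minus WT (x axis), of each of the 21 genes with its limma 95% interval (bars), ordered by role. The intervals of DNG701, AGO4A and MET1B leave out 0, before any adjustment for the number of clusters tested.

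In 19 of the 21 members, and in 13325 of the 15140 genes, the 95% interval lay within a 2-fold difference in either direction. The exceptions among the members were DNG701 and AGO17, whose intervals reached past it. The 19 include HDA703, whose interval describes a dim signal and sets no bound on its transcript. These intervals are not adjusted for the number of genes.

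The WT arrays spread more than the dsl1 arrays in these genes. The SD was larger in WT for 17 of the 21 members and larger in dsl1 for 4, with a median SD of 0.111 in dsl1 and 0.186 in WT. Over all genes 59.8% had the larger SD in WT. WT replicate 2 held the highest of the 6 values in 7 members, while WT replicate 1 held the lowest in 8 and WT replicate 3 in 6. Such counts per array were not made over all genes, so they cannot be called particular to the members. Without WT replicate 2, 5 members had an unadjusted p under 0.05 in limma, namely DNG701, AGO4A, AGO1A, MET1A and EZ1. That is 23.8% of them, against 15.1% of all genes in the same fit, and no test of this gap was made. There MET1B was no longer among the 5, with a difference of 0.34. MET1B also left that side of the threshold without dsl1 replicate 3, with a difference of 0.39. Without WT replicate 1, AGO17 joined DNG701, AGO4A and MET1B, 19% of the members against 11% of all genes. None of them passed after adjustment in these 3 settings (lowest limma adjusted p = 0.317, for DNG701 without dsl1 replicate 3).

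**Figure D5:**
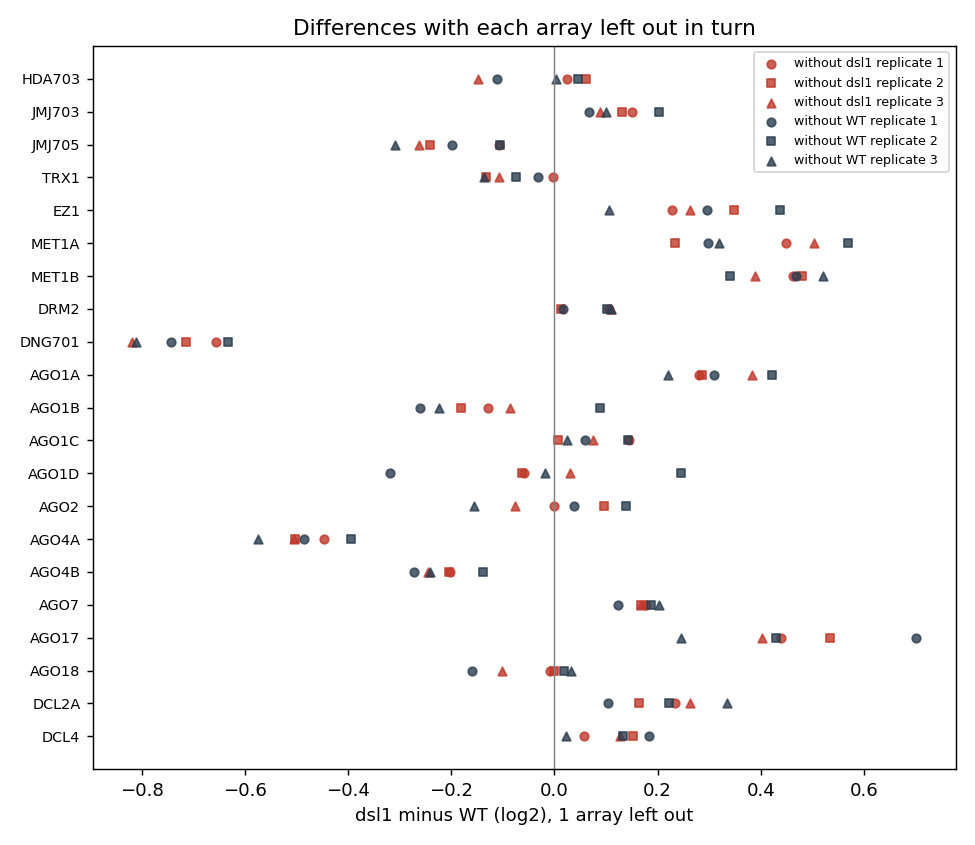
Log2 difference, dsl1 minus WT (x axis), of each of the 21 genes with 1 array left out in turn (red, a dsl1 array; dark, a WT array). DNG701 and AGO4A stay below 0 and MET1B above 0, while AGO1B, AGO1D, AGO2, AGO18 and HDA703 lie on both sides of 0.

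Of other chromatin and small RNA genes, listed by symbol, 8 were matched, of which 4 are members and 4 are not. None of these 4 passed in limma. An unadjusted p under 0.05 in limma was seen for 1 of the 4, against 15% of all genes. The gene was OsSGS3, a partner of RNA-dependent RNA polymerase in making trans-acting small RNAs. OsSGS3 had levels of 8.10, 8.14 and 8.07 in dsl1, against 8.49, 8.43 and 8.46 in WT, with little spread in either genotype. Its groups did not overlap, as in 24.4% of all genes. Its difference was -0.36 (95% interval -0.63 to -0.091, limma adjusted p = 0.34), and it stayed between -0.38 and -0.34 with 1 array left out. LSD1, which in rice names a zinc-finger protein linked to cell death and not the histone demethylase of that name, differed by 0.25 (limma adjusted p = 0.606), or by 0.11 without dsl1 replicate 1. LHP1, which binds the Polycomb mark, differed by 0.053, and FAS2, a subunit of a histone chaperone, by 0.043, with limma adjusted p of 0.89 and 0.93.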

How the data were processed

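Total RNA of 3 dsl1 and 3 WT shoot apex samples was hybridised to 1 array each. The deposited table holds log2 levels of 54922 clusters, which per the submitters' processing notes involved Affymetrix Expression Console 1.3. Its background correction and normalisation, and the genome build, are not given in the sources. That the values are log2 was read from their range. They were used unscaled, and no 2 arrays shared more than 34 identical values. Samples were grouped by title. Clusters with 1 gene in the platform table (15829) were named through the rice reference ASM3414082v1, with the brightest cluster standing for a gene. The table lists no gene for 38653 clusters and several for 440.

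The genotypes were compared in R 4.3.3 with limma 3.58.1 (a linear model with moderated variances, 2-sided, no block), adjusted over all clusters. The fit was also run on simulated data with the same spread in every cluster. The differences planted there were larger than that of any member, so that run does not cover differences as small as theirs. The members, the related genes and the tests were chosen with earlier results of these data known. The text names every member and related gene, with values on every array for those with the 10 smallest p and for the deacetylase, DNA methyltransferases, glycosylase and Polycomb gene, as well as for some others. Alternatives were quantile normalisation, median centring, leaving out the dimmest 33.3%, fitting 1-gene clusters only, the replicate block, a variance trend, a robust prior, leaving out each array and, added later, leaving out the 7793 rows before the first gene-paired cluster. The number of arrays limits the precision.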

Additional observations from a re-analysis of the deposited data

How the results depend on the processing

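No member and none of the 4 related genes passed in any of the 14 alternatives, and the lowest adjusted p of a member was 0.0904, for DNG701 in the limma fit of 1-gene clusters. The count of clusters called was 14 in all, 75 in the fit of 1-gene clusters, 52 without the rows before the first gene-paired cluster, 1 with the replicate block, and 0 to 8 with 1 array left out (0 without WT replicate 3 and 0 without dsl1 replicate 1). No pairing by replicate number was seen. Deviations of same-numbered arrays correlated at -0.064, -0.13 and -0.052. None of the 3 dsl1 arrays correlated best with its own number in WT. With 3 arrays in each genotype, a weak shared batch could be missed. With 1 array left out, the number of members at an unadjusted p under 0.05 was 2 to 5 (9.52% to 23.8% of them), while the share of all genes there was 9.73% to 15.1%. The median difference of the members, 0.075, ranged from 0.024 to 0.139. The median difference of the Argonautes, -0.012, then ranged from -0.062 to 0.14, and that of the DNA methyltransferases, 0.40, from 0.23 to 0.45. Signs changed in 5 members: with 1 array left out AGO18 ranged from -0.16 to 0.032, AGO1B from -0.26 to 0.088, AGO1D from -0.32 to 0.25, AGO2 from -0.16 to 0.14 and HDA703 from -0.15 to 0.061, while quantile normalisation gave -0.031 for AGO2 and 0.041 for HDA703. FAS2 ranged from -0.024 to 0.13. The other 16 members kept their direction in every alternative that gave them a value. HDA703 gave none without the dimmest clusters.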
